A study of Mus musculus with 4 samples.

Results

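The genes described here are the phase II detoxification enzymes of the mouse caecum and the core genes of the Nrf2 antioxidant response. They were picked by gene symbol from families set with earlier results of these data known: 18 glutathione S-transferases (Gst), 3 microsomal glutathione S-transferases (Mgst), 11 UDP-glucuronosyltransferases (Ugt), 21 sulfotransferases (Sult), 4 carbonyl reductases (Cbr) and 7 named genes around Nrf2 (Nfe2l2, Gclc, Gclm, Txnrd1, Srxn1, Nqo1 and Hmox1). This gave 64 of the 22180 genes with a probe set assigned to 1 symbol. A further 9 probe sets that name a gene of these families together with other genes were left out.

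Expression was measured in caecal tissue of C57Bl/6 mice aged 21 weeks, on 4 Affymetrix arrays, 1 for each group. The groups were apoE knockout (KO) mice with prebiotics, KO mice without, wild-type (WT) mice with prebiotics and WT mice without. The food of every group was depleted in polyunsaturated fatty acids of the n-3 class, and treated mice received 250 mg of prebiotics (Orafti P95) daily during the final 15 days. Each array held RNA pooled from 6 mice that had been selected on RNA quality, so the spread between mice cannot be seen. Having only 4 arrays limits the precision. The diet labels of the WT arrays conflict: title, source name and treatment give 1 diet, and the description gives the other. The WT arrays are therefore called by their titles throughout, and statements on diet in WT mice hold only if the titles are right. The KO labels give 1 diet per array throughout, and no array's labels conflict on genotype.

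Phase II enzymes attach a polar group to foreign compounds, bile pigments, steroids and reactive lipid products so that these can be exported. Glutathione S-transferases add glutathione, UDP-glucuronosyltransferases add glucuronic acid, sulfotransferases add sulfate, and carbonyl reductases prepare aldehydes, ketones and quinones by reducing them. Nrf2, encoded by Nfe2l2, is a transcription factor held at a low protein level by Keap1. When electrophiles or oxidants modify Keap1, Nrf2 accumulates and binds antioxidant response elements near its target genes, several of which make or use glutathione. In the gut the epithelium carries much of this enzyme activity.

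Because Nrf2 acts through short elements near its targets, the sequence upstream of the members was inspected for the core of the antioxidant response element, TGACNNNGC, on both strands. The RefSeq promoter windows of GRCm38.p6 run from 250 bases before to 50 bases after a gene's start and matched 55 of the 64 members; the others were Gclc, Gsta4, Gstt2, Hmox1, Sult2a1, Sult2a2, Sult2a7, Sult4a1 and Ugt3a2. The core occurred in at least 1 window of 7 of these 55 members (12.7%), against 14.0% of all 27025 genes with a window. The 7 were Gclm, Txnrd1, Srxn1, Nfe2l2, Gsta3, Gstm7 and Mgst1. Such a match describes the letters of the window and is not evidence of binding. The windows of Gclm (chr3:122245307-122245606 on the plus strand) and Txnrd1 (chr10:82858956-82859255 on the plus strand) are shown because they hold the core, 134 and 92 bases before the start. The windows of Cbr3 (chr16:93682969-93683268 on the plus strand) and Gstm2 (chr3:107986371-107986670 on the minus strand) are shown because Cbr3 and Gstm2 are members that passed the test for prebiotics described next; neither holds the core. Capitals mark the core, which lies on the opposite strand in Gclm and Txnrd1 and is therefore read here as its reverse complement.
Gclm: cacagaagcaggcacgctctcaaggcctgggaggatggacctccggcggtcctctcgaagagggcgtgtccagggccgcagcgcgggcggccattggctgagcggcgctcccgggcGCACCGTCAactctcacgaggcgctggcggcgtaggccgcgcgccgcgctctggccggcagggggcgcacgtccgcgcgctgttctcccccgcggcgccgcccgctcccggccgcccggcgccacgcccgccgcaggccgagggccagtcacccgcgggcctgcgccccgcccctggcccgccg
Txnrd1: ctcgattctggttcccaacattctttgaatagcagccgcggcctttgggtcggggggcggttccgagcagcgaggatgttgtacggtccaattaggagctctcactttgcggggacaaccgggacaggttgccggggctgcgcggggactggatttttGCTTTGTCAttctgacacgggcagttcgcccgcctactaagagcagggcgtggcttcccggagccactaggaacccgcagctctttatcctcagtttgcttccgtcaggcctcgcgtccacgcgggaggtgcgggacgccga
Cbr3: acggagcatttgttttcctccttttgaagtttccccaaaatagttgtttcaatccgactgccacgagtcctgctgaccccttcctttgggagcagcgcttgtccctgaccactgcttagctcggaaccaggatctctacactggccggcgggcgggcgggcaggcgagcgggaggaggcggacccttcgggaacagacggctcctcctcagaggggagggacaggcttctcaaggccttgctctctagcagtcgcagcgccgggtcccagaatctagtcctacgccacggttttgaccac
Gstm2: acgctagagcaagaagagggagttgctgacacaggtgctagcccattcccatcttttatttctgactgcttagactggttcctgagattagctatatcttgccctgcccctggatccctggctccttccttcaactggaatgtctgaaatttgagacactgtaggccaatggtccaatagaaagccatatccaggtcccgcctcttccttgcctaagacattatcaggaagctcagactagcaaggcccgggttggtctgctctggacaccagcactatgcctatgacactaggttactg

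Levels are log2 values after robust multi-array averaging (RMA), and differences are given on the same log2 scale. Levels are compared between arrays for the same gene and not between genes, because probe sets differ in brightness. A gene entered a comparison if it reached, on at least 1 array of that comparison, that array's median over single-symbol probe sets, which lay between 2.99 and 3.01. Over the 4 arrays 41 members reached it: all 7 Nrf2 genes, all 4 carbonyl reductases, all 3 microsomal transferases, 16 of 18 glutathione S-transferases, 5 of 11 glucuronosyltransferases and 6 of 21 sulfotransferases. The other 23 stayed below this level on every array and entered no comparison. They were Gsto2 and Gstt4, the glucuronosyltransferases Ugt2a3, Ugt2b1, Ugt2b37, Ugt2b38, Ugt3a1 and Ugt3a2, and 15 sulfotransferases, including every Sult2a gene but Sult2a4, together with Sult1c1, Sult1e1, both Sult3a genes, Sult4a1, Sult5a1 and both Sult6b genes. The genes of the Gstm, Gstp, Ugt2b and Sult2a families are close copies of each other, so the copy behind a signal is uncertain.

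Apoe, the gene knocked out, followed the genotype labels, with log2 levels of 3.13 in KO mice with prebiotics and 2.83 in KO mice without, and 4.09 and 3.90 on the WT arrays titled with and without prebiotics. The tissue label was checked on markers. All 9 colonocyte and all 10 general epithelial markers measured lay above the filter level on every array, while 3 or 4 of 7 hepatocyte markers lay below it on each. Of 10 ileal enterocyte markers measured, only 1 or 2 lay below it on each array, so this check does not tell caecum from ileum. The arrays' medians lay between 2.92 and 2.93, and Pearson's r between arrays across all probe sets lay between 0.984 and 0.988.

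The first question was what prebiotics did to these genes. In KO mice the carbonyl reductase Cbr3 and Gclc, the catalytic subunit of the enzyme that starts glutathione synthesis, were lower with prebiotics, and the glucuronosyltransferase Ugt2b5 was higher. The same array pair showed negative differences for all 7 Nrf2 genes and all 3 microsomal transferases, and positive ones for all 5 glucuronosyltransferases that passed the filter, where 43.9% of all genes were below 0. On the WT arrays as titled, Cbr3 and Gclc were also lower with prebiotics, as was haem oxygenase 1 (Hmox1). In that pair all 7 Nrf2 genes and all 3 microsomal transferases were again below 0, beside 47.0% of all genes. The glucuronosyltransferases were divided there, with 2 of the 4 that passed above 0 and 2 below. Over both genotypes, limma called Cbr3 and Gclc lower and the mu-class transferase Gstm2 higher, each at an adjusted p under 0.05.

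These calls came from an additive model of genotype and prebiotics over 4 arrays (limma, 1 residual degree of freedom, Benjamini-Hochberg adjustment over all 13083 genes tested). In that model 1 member rose and 2 fell among the 41 tested, beside 0.994% of all genes called higher and 0.26% called lower (1.25% in either direction). An unadjusted p under 0.05 was reached by 16 members of the 41, or of all genes by 13.8%. With the WT arrays exchanged, as their descriptions would have it, limma called 0 members and 0 genes of any kind, while 0 members and 170 genes (1.3%) had an unadjusted p under 0.05. The calls therefore rest on the titles. With 1 array per group, the error in these tests comes from the gap between the KO difference and the WT difference. It is moderated by eBayes toward a trend over all genes. The tests therefore reflect how alike the 2 differences were, and the spread between repeat arrays of a group is not measured.

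Nfe2l2, which encodes Nrf2 itself, had log2 levels of 9.54 in KO mice with prebiotics and 9.62 in KO mice without, and 9.28 and 9.32 on the WT arrays titled with and without prebiotics. Its level differed little by diet in either genotype, with differences of -0.08 in the KO pair and -0.04 in the WT pair. The model gave -0.06 (SE 0.07, limma adjusted p = 0.785). Keap1, which holds Nrf2 in check, lay between 3.47 and 3.58 on the 4 arrays, close to the filter level, and its difference over both genotypes was 0.06 (SE 0.13, limma adjusted p = 0.898).

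Gclc had log2 levels of 9.48 in KO mice with prebiotics and 10.11 in KO mice without, and 9.39 and 10.68 on the WT arrays titled with and without prebiotics. Both arrays with prebiotics, by title, lay below both arrays without. The difference was -0.63 in the KO pair, a ratio of 0.647, and -1.29 in the WT pair, a ratio of 0.409. Over both genotypes it fell by 0.96 (SE 0.13, limma adjusted p = 0.00847); without eBayes' trend the call was lost (limma adjusted p = 0.131). Gclm, the regulatory subunit that raises the efficiency of the same enzyme, had 8.91 in KO mice with prebiotics and 9.19 in KO mice without, and 8.81 and 9.39 on the WT arrays titled with and without prebiotics. Its arrays were ordered in the same way, with differences of -0.28 in KO and -0.57 in the WT pair, but -0.43 over both genotypes did not pass the test (SE 0.09, limma adjusted p = 0.0589). It passed narrowly when the probe sets of each gene were averaged (limma adjusted p = 0.0497) and after cyclic loess (limma adjusted p = 0.0332).

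Txnrd1, the cytosolic thioredoxin reductase, had 8.97 in KO mice with prebiotics and 9.16 in KO mice without, and 8.99 and 9.33 on the WT arrays titled with and without prebiotics. Both arrays with prebiotics again lay below both without, by 0.19 in KO and 0.33 in the WT pair, and the difference over both genotypes was -0.26 (SE 0.08, limma adjusted p = 0.162). Srxn1, the sulfiredoxin that repairs overoxidised peroxiredoxins, had 5.83 in KO mice with prebiotics and 5.94 in KO mice without, and 5.70 and 5.88 on the WT arrays titled with and without prebiotics. Its differences of -0.12 and -0.18 were small beside those of Gclc.

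Nqo1, the quinone reductase often read as a sign of Nrf2 activity, had 8.54 in KO mice with prebiotics and 8.58 in KO mice without, and 8.24 and 8.68 on the WT arrays titled with and without prebiotics. The KO arrays lay within 0.04 of each other, and the WT arrays differed by -0.44. Over both genotypes the difference was -0.24 (SE 0.11, limma adjusted p = 0.366). Hmox1, which degrades haem and responds to Nrf2 and to other signals, had 3.78 in KO mice with prebiotics and 3.85 in KO mice without, and 3.11 and 5.08 on the WT arrays titled with and without prebiotics. Its WT difference of -1.96 was the third lowest of 12223 genes in that pair, whereas its KO difference was -0.07. One WT array lay high and the other near the filter level, so the size is approximate, and -1.02 over both genotypes did not pass (SE 0.34, limma adjusted p = 0.209). The prebiotic difference of Hmox1 in KO exceeded that in the WT pair by 1.89, of Gclc by 0.66 and of Nqo1 by 0.40; with 1 array per group these gaps were not tested. All 7 Nrf2 genes were thus below 0 in both pairs. Of all genes, 43.9% were below 0 in the KO pair, 47.0% in the WT pair and 44.9% over both genotypes.

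**Figure D1:**
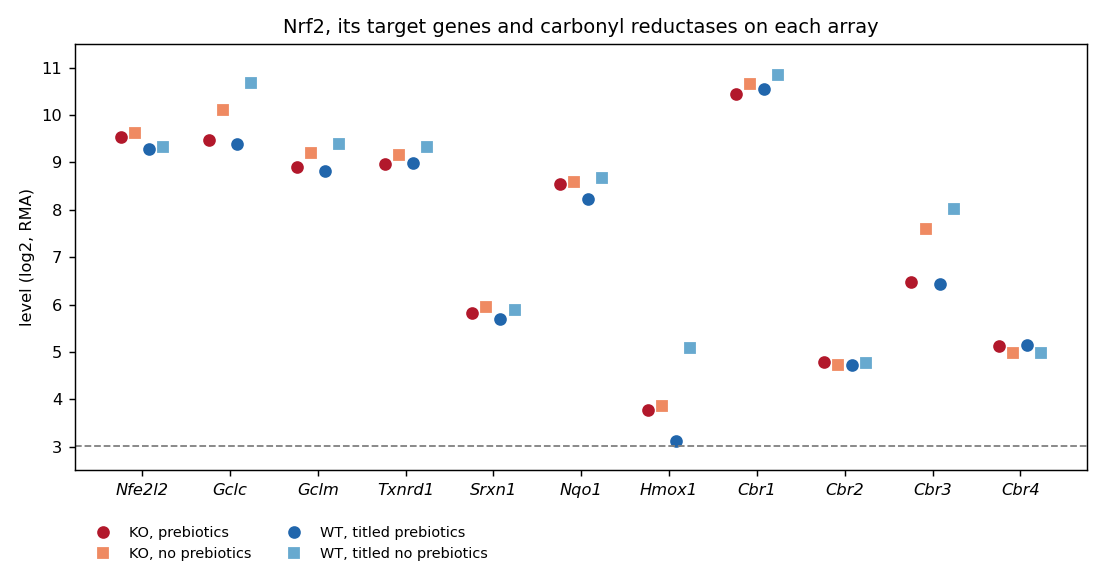
Log2 RMA level (vertical axis) of Nfe2l2, 6 Nrf2 target genes and 4 carbonyl reductases on each of the 4 arrays; each point is 1 array of RNA pooled from 6 mice, and the dashed line is the filter level. The circles (prebiotics, by title in WT) lie below the squares of the same genotype for Cbr3, Gclc and Gclm, while for Hmox1 this gap is 1.96 in the WT pair and 0.07 in the KO pair; heights are not comparable between genes.

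Among the carbonyl reductases, Cbr3 carried the largest difference. Its levels were 6.47 in KO mice with prebiotics and 7.59 in KO mice without, and 6.43 and 8.01 on the WT arrays titled with and without prebiotics. The KO difference of -1.11 corresponds to a ratio of 0.462 and was the 11th lowest of 12216 genes. The WT difference of -1.59 corresponds to a ratio of 0.333 and was the 6th lowest of 12223. Over both genotypes Cbr3 fell by 1.35 (SE 0.13, limma adjusted p = 0.00177), the third lowest value of 13083.

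Cbr1, the neighbouring gene, which reduces prostaglandins and quinones, had 10.45 in KO mice with prebiotics and 10.66 in KO mice without, and 10.55 and 10.84 on the WT arrays titled with and without prebiotics. Both arrays with prebiotics lay below both without, by 0.22 in KO and 0.29 in the WT pair, and -0.26 over both genotypes did not pass (SE 0.06, limma adjusted p = 0.0657). Cbr2, known from lung mitochondria, differed by 0.07 in KO and -0.05 in the WT pair. Cbr4, a mitochondrial reductase, differed by 0.15 in each pair. The 4 reductases therefore did not move alike, and only Cbr3 reached 1.5-fold.

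The glutathione S-transferases were mixed. Of the 16 that passed the filter, 11 were above 0 in the KO pair and 11 in the WT pair. Gstm2, a mu-class transferase, had 6.52 in KO mice with prebiotics and 5.97 in KO mice without, and 6.45 and 5.76 on the WT arrays titled with and without prebiotics. Both arrays with prebiotics lay above both without. The differences were 0.55 in KO and 0.70 in the WT pair, and the rise of 0.62 over both genotypes passed the test narrowly (SE 0.12, limma adjusted p = 0.0482). The call was lost without the expression filter (limma adjusted p = 0.111), without eBayes' trend (limma adjusted p = 0.144) and with the same filter level for all arrays (limma adjusted p = 0.0529).

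Gstm4 had 3.71 in KO mice with prebiotics and 3.15 in KO mice without, and 3.92 and 3.49 on the WT arrays titled with and without prebiotics, with differences of 0.56 in KO and 0.43 in the WT pair (0.49 over both genotypes, SE 0.14, limma adjusted p = 0.133). The order of genes in the RefSeq annotation of GRCm38.p6 was taken over genes with a probe set assigned to 1 symbol. There the 6 measured genes of the mu class lie side by side as Gstm7, Gstm6, Gstm3, Gstm2, Gstm1 and Gstm4. In that order their KO differences were 0.21, 0.02, 0.12, 0.55, -0.29 and 0.56. Their WT differences were 0.31, 0.09, 0.34, 0.70, 0.05 and 0.43. Gstm1, between the pair of genes with the largest values, was lower by 0.29 in KO mice with prebiotics. The probe sets assigned to these neighbours therefore did not move as a block.

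In the pi class, Gstp3 was higher with prebiotics by 0.37 in KO and 0.38 in the WT pair, with levels of 4.99 in KO mice with prebiotics and 4.62 in KO mice without, and 4.76 and 4.38 on the WT arrays titled with and without prebiotics. Over both genotypes its 0.38 did not pass (SE 0.13, limma adjusted p = 0.239). Gstp1, the main transferase of many epithelia, differed by -0.32 in KO and 0.07 in the WT pair. In the theta class, Gstt3 had 5.84 in KO mice with prebiotics and 5.33 in KO mice without, and 5.38 and 5.32 on the WT arrays titled with and without prebiotics. The KO array with prebiotics stood above the other 3, which lay within 0.06 of each other.

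Gsta4, which conjugates the lipid peroxidation product 4-hydroxynonenal, had 7.12 in KO mice with prebiotics and 7.12 in KO mice without, and 7.13 and 7.71 on the WT arrays titled with and without prebiotics. Here the WT array titled without prebiotics stood above the other 3, giving a WT difference of -0.58 beside -0.01 in KO. Gsta3, of the same class, differed by -0.28 in KO and -0.23 in the WT pair. Gsto1 of the omega class and Gstk1 of the mitochondrial and peroxisomal kappa class were nearly level, with differences of 0.02 and 0.08 in KO and 0.07 for each in the WT pair.

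The 3 microsomal transferases were lower with prebiotics in both pairs. Mgst2, which can also make leukotriene C4, had 7.33 in KO mice with prebiotics and 7.71 in KO mice without, and 7.50 and 8.07 on the WT arrays titled with and without prebiotics. Both arrays with prebiotics lay below both without, by 0.38 in KO and 0.57 in the WT pair. Its -0.48 over both genotypes did not pass (SE 0.10, limma adjusted p = 0.0638). Mgst1 had -0.15 in KO and -0.45 in the WT pair, and Mgst3 had -0.17 and -0.07.

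Among the glucuronosyltransferases, Ugt2b5, which acts on steroids, had 4.55 in KO mice with prebiotics and 3.73 in KO mice without, and 3.56 and 3.76 on the WT arrays titled with and without prebiotics. The KO array with prebiotics stood alone above the other 3. Its KO difference of 0.82, a ratio of 1.76, made it the only member at least 1.5-fold higher in that pair, beside 2.63% of all genes. The WT difference was -0.19, and 0.31 over both genotypes did not pass (SE 0.21, limma adjusted p = 0.589). Ugt2b34 had 10.82 in KO mice with prebiotics and 10.54 in KO mice without, and 10.58 and 10.39 on the WT arrays titled with and without prebiotics. It was higher with prebiotics by 0.29 in KO and 0.19 in the WT pair (0.24 over both genotypes, SE 0.06, limma adjusted p = 0.0919). Ugt8a, which places galactose on ceramide and is no detoxifying enzyme despite its name, had 0.25 and 0.07.

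The Ugt2b genes, Ugt2a3 and 3 sulfotransferases lie side by side in the same order of genes, from Ugt2b34 through Ugt2b38 to Sult1b1, Sult1d1 and Sult1e1. On at least 1 array the probe sets assigned to Ugt2b34, Ugt2b35, Ugt2b36, Ugt2b5, Sult1b1 and Sult1d1 gave signal above the filter level. Those assigned to Ugt2b1, Ugt2b37, Ugt2a3, Ugt2b38 and Sult1e1 did not. Among the 6 with signal the KO difference was highest for Ugt2b5 and lowest for Sult1d1, at 0.82 and -0.19.

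Of the sulfotransferases, Sult1d1, which acts on phenols and catecholamines, had 10.35 in KO mice with prebiotics and 10.54 in KO mice without, and 10.34 and 10.51 on the WT arrays titled with and without prebiotics. It was lower with prebiotics by 0.19 in KO and 0.17 in the WT pair. Sult1b1, known for thyroid hormone and small phenols, had 7.88 in KO mice with prebiotics and 7.42 in KO mice without, and 7.60 and 7.49 on the WT arrays titled with and without prebiotics, a KO difference of 0.47 beside 0.10 in the WT pair. Sult1a1, the main phenol sulfotransferase, differed by 0.01 in KO and 0.05 in the WT pair.

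Sult2b1, which sulfates cholesterol, had 4.92 in KO mice with prebiotics and 4.47 in KO mice without, and 4.91 and 4.40 on the WT arrays titled with and without prebiotics. Both arrays with prebiotics lay above both without. The differences of 0.45 and 0.51 gave 0.48 over both genotypes (SE 0.13, limma adjusted p = 0.137). Sult1c2 was higher by 0.30 in KO and 0.23 in the WT pair. Sult2a4, at the filter level, had 2.84 in KO mice with prebiotics and 3.39 in KO mice without, and 2.67 and 3.03 on the WT arrays titled with and without prebiotics, values too low for its differences of -0.54 and -0.36 to be read as sizes.

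**Figure D2:**
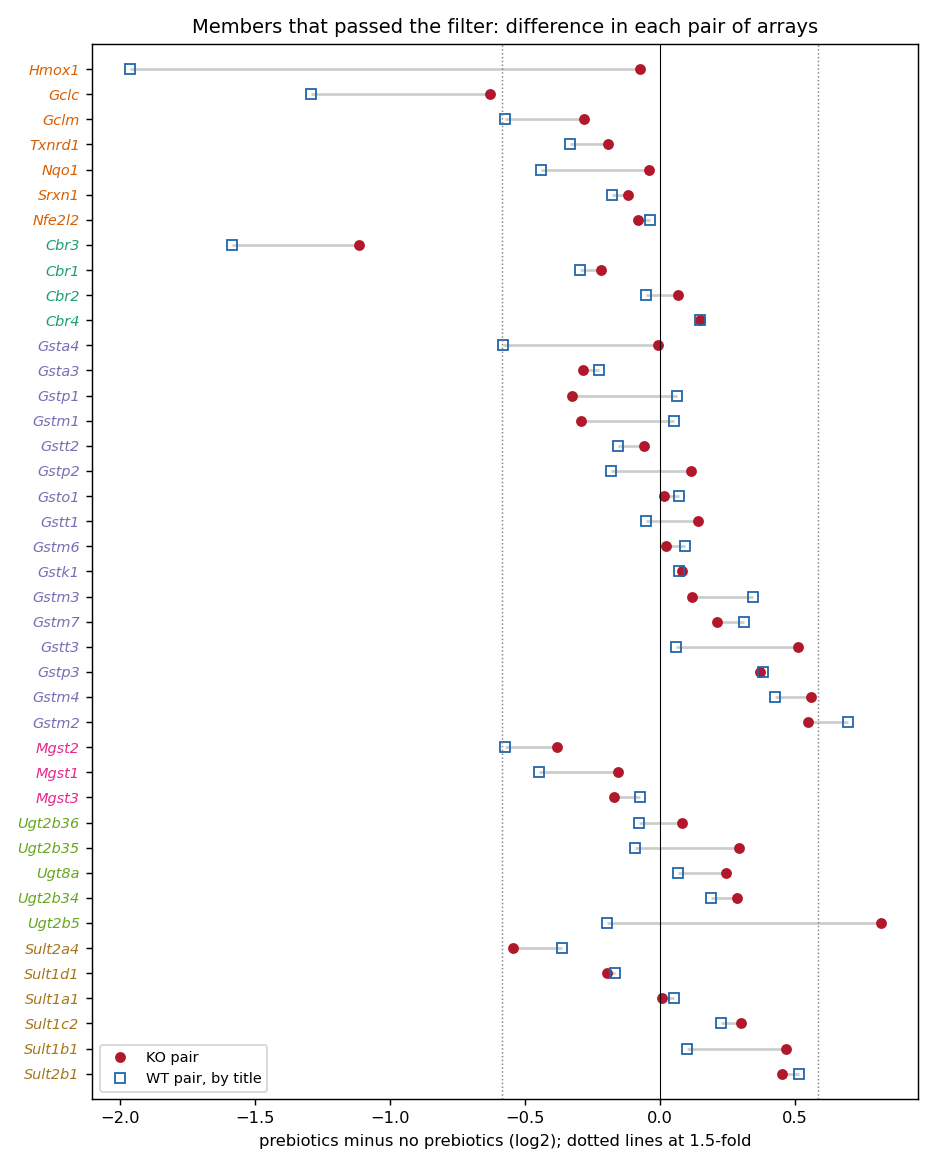
Difference between prebiotics and no prebiotics (horizontal axis, log2) of the 41 members that passed the filter, in the KO pair (filled circles) and in the WT pair by title (open squares); rows are coloured by family, and grey bars join the pairs. Cbr3 and Gclc lie beyond the 1.5-fold line on the left in both pairs, Hmox1 in the WT pair alone; on the right Ugt2b5 lies beyond it in the KO pair alone and Gstm2 in the WT pair alone.

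Counted by size, 2 members were at least 1.5-fold lower in the KO pair (Cbr3 and Gclc) and 1 higher (Ugt2b5), among 41 that passed the filter. The shares over all genes were 1.15% lower and 2.63% higher (3.78% in either direction). At 2-fold the KO pair held 1 member, Cbr3, beside 0.139% of all genes lower and 0.475% higher (0.614% in either direction). In the WT pair 3 members were at least 1.5-fold lower (Hmox1, Cbr3 and Gclc) and 1 higher (Gstm2) among 40, beside 1.11% and 2.07% of all genes (3.18% in either direction). Those 3 were also 2-fold lower, beside 0.18% of all genes 2-fold lower and 0.335% higher (0.515% in either direction).

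The KO pair and the WT pair are separate sets of arrays. Of the 41 members that passed the filter, 33 had the same sign in both pairs, which is 80.5%, beside 59.2% of all 13083 genes. Of these 33, 17 were lower and 16 higher in both, beside 25.1% and 34.1% of all genes. At 1.5-fold, 2 were lower in both pairs, Cbr3 and Gclc, beside 0.168% of all genes, and 0 were higher in both, beside 0.497%. Across the 41 members the KO and WT differences gave a Pearson r of 0.66 and a Spearman rho of 0.70, against 0.31 and 0.26 across all genes. Genes on the same arrays are not independent, so no p is given, and the sign of each r turns if the WT arrays are exchanged.

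**Figure D3:**
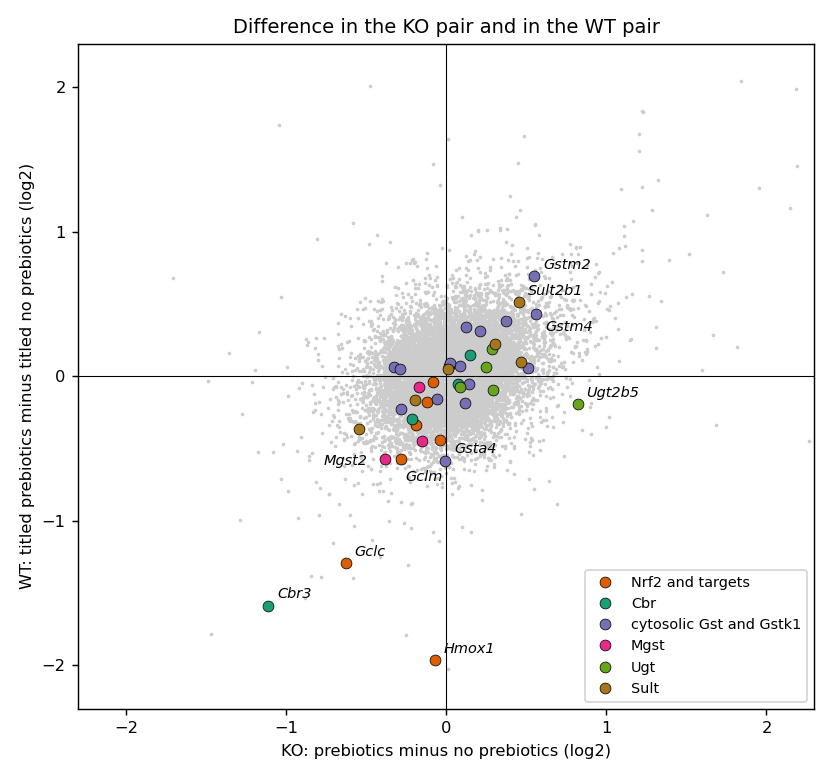
Prebiotic difference in the KO pair (horizontal axis, log2) against that in the WT pair by title (vertical axis, log2); coloured points are the 41 members that passed the filter, and grey points are other genes, of which 12 lie outside the axes. Cbr3 and Gclc lie far to the lower left, Hmox1 low on the vertical axis at a KO difference of -0.07, and Ugt2b5 at 0.82 to the right.

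Other genes that are known to follow Nrf2 were counted from a list of 24, of which 19 had a probe set of their own and 17 passed the filter. In limma 3 of the 17 fell with prebiotics over both genotypes and 0 rose, beside 0.26% of all genes called lower and 0.994% called higher. They were the anion exporter Abcc4, malic enzyme Me1, which supplies NADPH, and the aldo-keto reductase Akr1b8. Me1 had 7.41 in KO mice with prebiotics and 8.14 in KO mice without, and 7.47 and 8.28 on the WT arrays titled with and without prebiotics. It fell by 0.78 (SE 0.10, limma adjusted p = 0.00683). Akr1b8 had 4.76 in KO mice with prebiotics and 5.56 in KO mice without, and 4.98 and 5.94 on the WT arrays titled with and without prebiotics. It fell by 0.88 (SE 0.13, limma adjusted p = 0.0157). Abcc4 had 4.37 in KO mice with prebiotics and 5.84 in KO mice without, and 4.40 and 6.18 on the WT arrays titled with and without prebiotics. It fell by 1.62 (SE 0.14, limma adjusted p = 0.00108). The median difference of the 17 was -0.14, beside 0.02 over all genes tested. The stress gene Osgin1 had 0.46, in the opposite direction, and did not pass (SE 0.14, limma adjusted p = 0.161). Of 10 regulators of Nrf2 measured, 0 were called by limma and 1 had an unadjusted p under 0.05, beside 13.8% of all genes. Bach1, a repressor of the same elements, had 0.32 and the small Maf protein Mafk 0.32.

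Of 9 xenobiotic receptors and related genes that passed the filter, 2 rose over both genotypes, beside 0.994% of all genes. The constitutive androstane receptor Nr1i3 had 3.94 in KO mice with prebiotics and 3.02 in KO mice without, and 4.004 and 3.31 on the WT arrays titled with and without prebiotics. It rose by 0.81 (SE 0.14, limma adjusted p = 0.0287). Both arrays without prebiotics, by title in WT, lay close to the filter level, so the size is approximate. The cytochrome Cyp3a13 rose by 0.64 (SE 0.09, limma adjusted p = 0.0116). The pregnane X receptor Nr1i2 had 7.05 in KO mice with prebiotics and 6.51 in KO mice without, and 6.57 and 7.11 on the WT arrays titled with and without prebiotics, 0.54 higher with prebiotics in KO and 0.55 lower on the WT array titled with them. Of 13 genes that supply or handle phase II cofactors, 1 rose, beside 0.994% of all genes. It was Papss2, which makes the sulfate donor, by 0.28 (SE 0.04, limma adjusted p = 0.0155). The medians of the 3 lists were 0.07 for the regulators, 0.24 for the receptors and 0.16 for the cofactor genes. With the WT arrays exchanged none of these calls remained, because limma then called 0 genes.

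Markers of cell types moved on the same arrays. For comparison, limma called 0.994% of all genes higher and 0.26% lower over both genotypes, and 13.8% had an unadjusted p under 0.05. Of 9 colonocyte markers 6 rose over both genotypes in limma, and their mean log2 level was 10.39 and 9.95 in KO mice with and without prebiotics, and 10.36 and 9.97 on the WT arrays titled with and without. Of 9 ileal enterocyte markers that passed the filter 4 rose. The means over all 10 measured were 6.73 and 5.49 in KO and 6.46 and 5.65 in WT, in the same order. Smooth muscle markers fell in 3 of 8, with means of 8.68 and 8.89 in KO and 8.22 and 8.60 in WT. Of 8 adipocyte markers measured, 6 passed the filter. Over both genotypes 4 of these were below 0 and 2 above 0, and limma called 2 lower, Fabp4 and Lpl. Of 10 general epithelial markers 1 rose, Elf3 by 0.55. Macrophage markers, relevant to Hmox1, which macrophages express, had 0 of 9 called by limma and 2 with an unadjusted p under 0.05, with means of 4.66 and 4.64 in KO and 4.52 and 4.12 in WT. Paneth cell markers had 0 of 7 called by limma and 2 with an unadjusted p under 0.05. Their mean was 5.77 on the KO array with prebiotics, where Ugt2b5 and Gstt3 also stood apart. It was 3.67 on the KO array without, and 3.56 and 3.72 on the WT arrays in title order. These markers did not move alike in the KO pair, where 4 were at least 2-fold higher and 1 at least 2-fold lower, from -1.71 to 5.10. B cell markers were also apart on the KO array with prebiotics. Their mean was 2.83 there, 3.50 on the KO array without prebiotics, and 3.60 and 3.61 on the WT arrays in title order. Limma called 0 of 6 B cell and 0 of 6 goblet cell markers, with 3 of each at an unadjusted p under 0.05. Tat rose among 4 hepatocyte markers that passed, of which 3 were above 0 and 1 below. In whole tissue, fewer cells of a type and less RNA per cell cannot be told apart, and the part of these markers in the differences above was not tested.

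The second question was whether the knockout changed these genes. The comparison of both KO arrays with both WT arrays (limma, 2 residual degrees of freedom) does not depend on the diets of the WT arrays. It leaves diet out, so its error holds the diet difference. The SE of Cbr3, for instance, was 0.53 here and 0.13 in the additive model. This comparison called 0 of the 41 members and 0 of all 13083 genes (0.0%). An unadjusted p under 0.05 was reached by 2 members and 430 genes (3.29%). The 2 members were Nfe2l2 and Ugt2b35. Apoe, at -1.02 (SE 0.16), had a limma adjusted p of 0.782. Since even the gene knocked out was not called, the lack of calls does not show that the genotypes were alike. With diet by title as a block, limma called 8 genes higher and 4 lower, with Apoe at an adjusted p of 0.0355 and 0 members called. With diet as a block and the WT arrays exchanged it called 0 and 0.

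Both KO arrays lay above both WT arrays for 6 members and below for 2, which is 19.5% of 41, beside 30.2% of all genes (16.2% above and 14.0% below). Of the 6, Ugt2b36 entered the comparison through its KO arrays alone, since both WT arrays lay below the filter level. Nfe2l2 was higher on the KO arrays, as the levels above show, by 0.28 (SE 0.10, limma adjusted p = 0.999). Ugt2b35 had 3.78 in KO mice with prebiotics and 3.49 in KO mice without, and 3.16 and 3.26 on the WT arrays titled with and without prebiotics, a difference of 0.43 (SE 0.15, limma adjusted p = 0.999). Sult1a1 had 9.85 in KO mice with prebiotics and 9.84 in KO mice without, and 9.65 and 9.60 on the WT arrays titled with and without prebiotics, and its KO arrays exceeded its WT arrays by 0.22 (SE 0.10, limma adjusted p = 0.999). Ugt2b5 had the highest KO mean relative to WT of the members tested, by 0.48 (SE 0.26, limma adjusted p = 0.999).

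Lower on the KO arrays were Gsta4 by 0.30, Hmox1 by 0.28 and Mgst2 by 0.26, none of which passed. The value of Ugt2b5 rested in part on the KO array with prebiotics, without which it was 0.07. Without the WT array titled without prebiotics, Gsta4 was at -0.0090, Hmox1 at 0.70 and Mgst2 at 0.025, so these 3 values rested on that array. The value of Gstm4 did not, because its other WT array, at 3.92, lay above both KO arrays, at 3.71 and 3.15. The Sult2a genes lie 114 to 121 genes away from Apoe on its chromosome, counting only genes with a probe set assigned to 1 symbol. Among them only Sult2a4 reached the filter level. KO and WT means of cell type markers differed on the same arrays, although limma called 0 of them. For Paneth cell and B cell markers this rested largely on the KO array with prebiotics. The Paneth cell mean was 5.77 there and 3.67 on the other KO array, beside 3.56 and 3.72 on the WT arrays in title order. The B cell mean was 2.83 there and 3.50 on the other KO array, beside 3.60 and 3.61 on the WT arrays. All 8 smooth muscle markers (median 0.38) and 8 of 9 macrophage markers (median 0.25) had a KO mean above the WT mean. So had all 7 Paneth cell markers (median 0.98), while all 6 B cell markers had a lower one (median -0.38). The median over all genes was 0.01, and 47.1% of them lay below 0. Only 4 of the 7 Paneth cell and 8 of the 9 macrophage markers reached the filter level on a WT array. Of the 6 B cell markers 5 reached it on a KO array. The rest entered through 1 genotype alone, which favours the sign counted here. Beside 3.29% of all genes, an unadjusted p under 0.05 was reached by 2 smooth muscle, 0 Paneth cell, 3 macrophage and 2 B cell markers. Their part in the members' values was not tested.

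**Figure D4:**
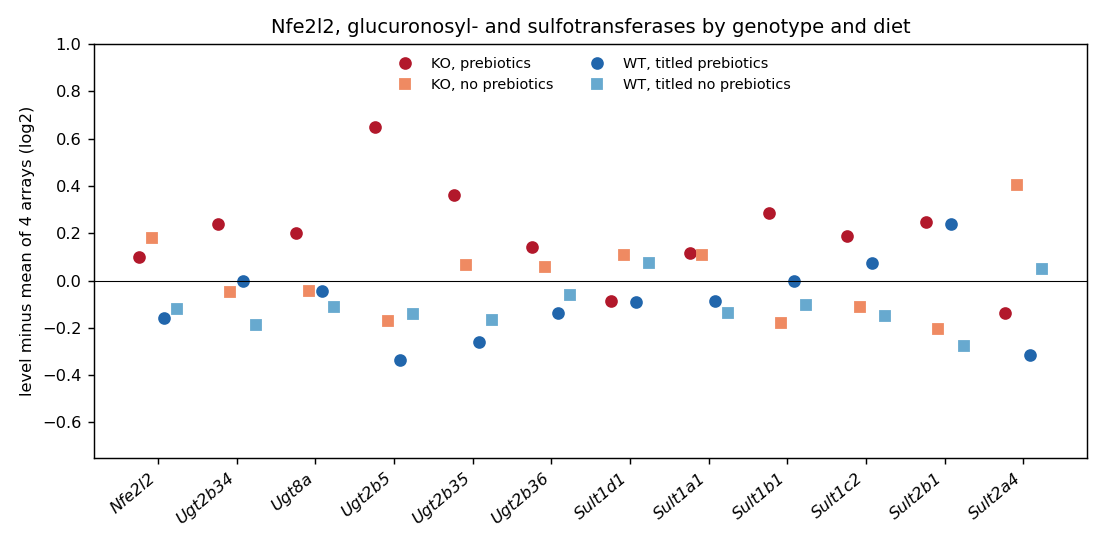
Log2 level of each array minus the mean of the 4 arrays (vertical axis) for Nfe2l2 and for the glucuronosyltransferases and sulfotransferases that passed the filter; each point is 1 array of RNA pooled from 6 mice. Red and orange points (KO) lie above both blue points (WT) for Nfe2l2, Ugt2b35 and Sult1a1, and for Ugt2b36, whose WT arrays both lay below the filter level; Ugt2b5 is high on the KO array with prebiotics alone.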

How the data were processed

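The deposited values were log2 expression values per probe set, made by the authors with RMA in Affymetrix Expression Console, per the submitters' processing notes; a genome build is not given in the sources used here. The base of the logarithm was taken from RMA's convention and the range of the values. Per the labels' protocols, 100 ng of RNA pooled from 6 mice was used per array.

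From these values, 23521 of 41345 probe sets with 1 gene symbol were used, giving 22180 genes; 1814 with several symbols and 16010 with none were left out. The probe set with the highest mean stood for its gene, which concerned 1 member, Cbr1. Genes at or above the array's median on at least 1 array of a comparison were kept. Pairs of arrays were subtracted, with 1.5-fold and 2-fold as descriptive sizes and no test. limma 3.58.1 in R 4.3.3 (lmFit, eBayes with trend) gave the tests, with Benjamini-Hochberg adjustment over all genes tested and calls under 0.05. The fits were tested on simulated data. Sequences came from RefSeq tables of GRCm38.p6.

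The members and gene lists were chosen with earlier results of these data known. Of the members, the text names all Nrf2 and Cbr genes, the 8 largest differences each way and the 4 with the highest mean of each family; of the other lists, up to 4 with the largest difference. Keap1 and Gstm6 were named beyond this rule, Keap1 for its role and Gstm6 for its place in the gene order, after their values were seen. The erythroid list had no usable probe set. Alternatives were the filter, the probe set rule, cyclic loess, eBayes without trend, the exchange of the WT arrays, diet as a block and each array left out.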

Additional observations from a re-analysis of the deposited data

Results flagged for a closer look

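Ugt2b5 had prebiotic differences of opposite sign in the 2 genotypes. Only its KO array with prebiotics, at 4.55, stood apart. The KO array without prebiotics lay at 3.73, and the WT arrays titled with and without prebiotics at 3.56 and 3.76. Its difference between prebiotics and no prebiotics was 0.82 (log2) in the KO pair and -0.19 in the WT pair by title, so the KO difference exceeded the WT difference by 1.01. With 1 array per group this difference was not tested. With the WT arrays exchanged the WT difference is 0.19, in the same direction as in KO.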

How the results depend on the processing

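Results on diet in WT mice depend on which label of the WT arrays is right, and 1 pooled array per group limits every value. With the WT arrays exchanged, the WT pair had 22 genes 2-fold higher and 41 lower, against 41 and 22 by title, and 3 members 1.5-fold higher and 1 lower, against 1 and 3. The WT differences became 1.96 for Hmox1, 1.59 for Cbr3, 1.29 for Gclc and -0.70 for Gstm2. Over both genotypes limma then called 0 genes and 0 members (170 genes and 0 members at an unadjusted p under 0.05), and the differences turned to 0.24 for Cbr3, 0.33 for Gclc, -0.073 for Gstm2, 0.15 for Gclm, 0.10 for Mgst2, 0.039 for Cbr1 and 0.95 for Hmox1. They were also turned for Txnrd1 (0.071), Nqo1 (0.20), Srxn1 (0.030), Mgst1 (0.15), Gstp3 (-0.0056), Sult2b1 (-0.031) and Gsta4 (0.29).

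By title, limma called 130 genes higher and 34 lower over both genotypes, with 1 member higher and 2 lower. It called 68 and 17 genes without the expression filter and 21 and 4 without the trend; cyclic loess gave 63 lower genes. The higher member, Gstm2, was lost without the filter, without the trend and with 1 filter level for all arrays, an alternative chosen after seeing the data, so that the count was 0 under each. Without the trend 1 member was lower, Cbr3, while Gclc had a limma adjusted p of 0.131. After cyclic loess 5 were lower, with Gclm, Mgst2 and Cbr1 added at limma adjusted p of 0.0332, 0.0389 and 0.0341, and the WT pair had 6 members 1.5-fold lower. The cause was not tested.

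For genotype, diet as a block gave 8 genes higher and 4 lower and Apoe a limma adjusted p of 0.0355, but 0 members; with the WT arrays exchanged the block gave 0 and 0. Leaving out each array in turn gave 0 to 5 higher and 0 to 2 lower genes; the lone array of a genotype was assumed to vary like the others. Mgst2 ranged from -0.55 to 0.025 and Hmox1 from -1.26 to 0.70, each highest without the WT array titled without prebiotics. No paired analysis was possible because the labels carry no replicate numbers; the block above is diet, which pairs no replicates.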
